A study of Mus musculus with 2 samples.

Results

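The respiratory chain and ATP synthase genes were taken as all protein-coding genes of GENCODE M21, on the mouse build mm10, whose symbols start with Nduf, Sdh, Uqcr, Cox4i, Cox5, Cox6 or Atp5. The rule found 89 entries with 88 symbols among 21938 protein-coding genes, and Atp5o was listed under 2 gene identifiers. By complex they were 44 genes of complex I (7 core subunits, 29 supernumerary subunits and 8 assembly factors), 8 of complex II, 8 of complex III, 11 of complex IV and 18 of ATP synthase (5 of the F1 head and 13 of the Fo part and accessory proteins). Ndufa4 and Ndufa4l2 were counted with complex IV, to which the Ndufa4 protein is now assigned. Subunits encoded in the mitochondrial genome, and the Cox7 and Cox8 subunits, are outside the rule.

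The data were DNase-seq maps of mouse adrenal gland, in which DNase I cuts DNA that is not covered by nucleosomes and the cut sites are sequenced. There were 2 samples, biological replicates 1 and 2 of 1 group, from females of the F1 cross B6CASTF1/J (C57BL/6J by CAST/EiJ) aged 10 days, and the labels name 3 females for each sample. No treatment, mutation or second tissue was compared, so the comparisons here are between replicates, between member genes, and between these genes and all protein-coding genes. The tissue was used whole. In such bulk tissue, fewer cells with an open site cannot be told apart from a less open site in every cell.

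The respiratory chain passes electrons from NADH and succinate to oxygen through complexes I to IV of the inner mitochondrial membrane, and complexes I, III and IV pump protons as they do so. ATP synthase lets the protons return through its Fo part and makes ATP in its F1 head. Mitochondria of the adrenal cortex also hold the first and last steps of corticosteroid synthesis, whose cytochrome P450 enzymes take electrons from NADPH by way of ferredoxin. Nuclear genes for the chain are textbook targets of NRF1, of the ETS family factor GABP, of YY1 and, through the coactivators of the PGC-1 family, of the estrogen-related receptors.

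Sequences are shown for 8 members in which a match to such a factor's motif had its centre inside a footprint of both replicates. Such a match is called footprinted here. In Ndufaf8, Ndufc1, Atp5g3 and Sdhd, part of the match lay outside the footprint in 1 or both replicates. A footprint is a short stretch within an accessible site that is cut less often than its flanks. The sequences are from RefSeq promoters on GRCm38.p6, are given 5′ to 3′ on the strand of the gene, and carry motif matches in capitals. The motifs were GCGCANGCG for NRF1, AANATGGCG for YY1, CCGGAAG for ETS factors, and CAAGGTCA for the monomer site that SF-1 (Nr5a1) and the estrogen-related receptors share, each searched on both strands. The NRF1 examples were the members with the highest peaks among those with a footprinted match, Ndufa8 at chr2:36049289-36049418 (minus strand) and Ndufaf4 at chr4:24897899-24898049 (plus strand).
Ndufa8: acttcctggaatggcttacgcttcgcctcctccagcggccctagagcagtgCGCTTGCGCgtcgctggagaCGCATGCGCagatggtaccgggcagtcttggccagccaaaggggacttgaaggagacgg
Ndufaf4: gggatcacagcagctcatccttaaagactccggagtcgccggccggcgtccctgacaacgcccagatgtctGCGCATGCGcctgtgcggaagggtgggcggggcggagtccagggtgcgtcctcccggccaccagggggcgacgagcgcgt
Ndufa8, a complex I subunit on the intermembrane-space side, carried 2 NRF1 matches within 1 footprint of 40 bp in replicate 1 and 39 bp in replicate 2. In Ndufaf4, a complex I assembly factor, the footprint measured 22 bp in replicate 1 and 20 bp in replicate 2.

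The YY1 examples were Ndufc1 at chr3:51408906-51409004 (minus strand) and Atp5b at chr10:128083252-128083356 (plus strand). The match lay in the gene's direction in Ndufc1, a membrane-arm subunit of complex I, and in the other direction in Atp5b, the catalytic beta subunit of ATP synthase.
Ndufc1: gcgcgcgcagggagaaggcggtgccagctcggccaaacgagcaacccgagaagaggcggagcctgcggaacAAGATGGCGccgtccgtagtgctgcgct
Atp5b: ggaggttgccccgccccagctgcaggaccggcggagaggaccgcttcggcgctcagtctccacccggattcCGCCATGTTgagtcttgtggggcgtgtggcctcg
The footprint over the Ndufc1 match measured 16 bp in replicate 1 and 11 bp in replicate 2. Over the Atp5b match it measured 38 bp in replicate 1 and 9 bp in replicate 2. Both matches lay downstream of the nearest GENCODE start, at +59 bp in Ndufc1 and +54 bp in Atp5b.

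The ETS examples were Ndufaf8 at chr11:120098854-120098983 (plus strand) and Cox6a1 at chr5:115348909-115349046 (minus strand). The sequence of Ndufaf8, a complex I assembly factor, also holds a YY1 match, which crosses the edge of the window searched around its peak centre and is not counted here.
Ndufaf8: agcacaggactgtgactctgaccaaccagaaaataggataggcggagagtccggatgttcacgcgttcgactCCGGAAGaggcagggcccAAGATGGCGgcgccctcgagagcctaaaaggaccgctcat
Cox6a1: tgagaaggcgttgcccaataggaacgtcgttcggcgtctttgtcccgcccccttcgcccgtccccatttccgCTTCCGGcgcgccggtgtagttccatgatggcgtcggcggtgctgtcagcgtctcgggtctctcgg
The ETS footprint measured 11 bp in replicate 1 and 7 bp in replicate 2 at Ndufaf8. At Cox6a1, the complex IV subunit isoform of most tissues, it measured 19 bp in replicate 1 and 13 bp in replicate 2.

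The SF-1 and estrogen-related receptor site was footprinted in both replicates at Atp5g3 (chr2:73911299-73911449 (minus strand)) and Sdhd (chr9:50603800-50603884 (minus strand)). It read TGACCTTG on the gene's strand in both promoters, and the Atp5g3 stretch also carries an NRF1 match.
Atp5g3: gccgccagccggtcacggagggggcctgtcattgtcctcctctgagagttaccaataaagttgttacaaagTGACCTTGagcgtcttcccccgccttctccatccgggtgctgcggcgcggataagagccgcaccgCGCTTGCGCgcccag
Sdhd: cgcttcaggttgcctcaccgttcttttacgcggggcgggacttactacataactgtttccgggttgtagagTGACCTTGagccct
Atp5g3 encodes subunit c of the rotating ring of ATP synthase, and Sdhd a membrane anchor of complex II. The footprint over that site measured 9 bp in replicate 1 and 11 bp in replicate 2 at Atp5g3, and 7 bp in each replicate at Sdhd.

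A promoter peak was a peak of the shorter deposited list of both replicates, overlapping by at least 1 bp, within 1 kb of any annotated start. Of the 89 members, 84 had one (94.4%, exact 95% binomial interval 87.4 to 98.2%), against 63.5% of all protein-coding genes. The interval covers counting error over genes only. Most members start in CpG-rich sequence, here a CpG observed-over-expected ratio of at least 0.6 within 500 bp of the 5'-most start. All 74 CpG-rich members had a shared promoter peak, against 95.4% of CpG-rich genes, and so did 10 of the 15 CpG-poor members, against 36.5% of CpG-poor genes. Within each CpG class the members' share was thus above that of all genes of the class, with only 15 members in the CpG-poor class. The class is read at the 5'-most start, whereas the peak may lie at another start, as in the CpG-poor Atp5f1 and Atp5j2. The members' 94.4% was near the 95.4% of CpG-rich genes, although the members include these 15 CpG-poor ones.

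Peak height is the authors' deposited signal value of the peak. Its unit is arbitrary, and how it was scaled between the replicates is not given in a source used here, so heights are set side by side mainly within a replicate. Over the 84 members the median height was 8.39 in replicate 1 and 4.05 in replicate 2, against medians of 5.94 in replicate 1 and 3.10 in replicate 2 over all genes with a shared promoter peak. The medians of CpG-rich genes lay between, at 7.15 in replicate 1 and 3.58 in replicate 2. Of the 84 members, 68 stood above the all-gene median in replicate 1 and 66 in replicate 2, where 49.9% of all genes did in replicate 1 and 49.9% in replicate 2. Members spanned 3.02 to 15.3 in replicate 1 and 1.21 to 7.98 in replicate 2, while all genes reached 39.9 in replicate 1 and 41.8 in replicate 2. As percentiles of all genes with a shared promoter peak, members ran from 25.4 to 97.6 in replicate 1 and from 15.1 to 99.4 in replicate 2, with medians of 69.4 in replicate 1 and 69.3 in replicate 2.

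**Figure D1:**
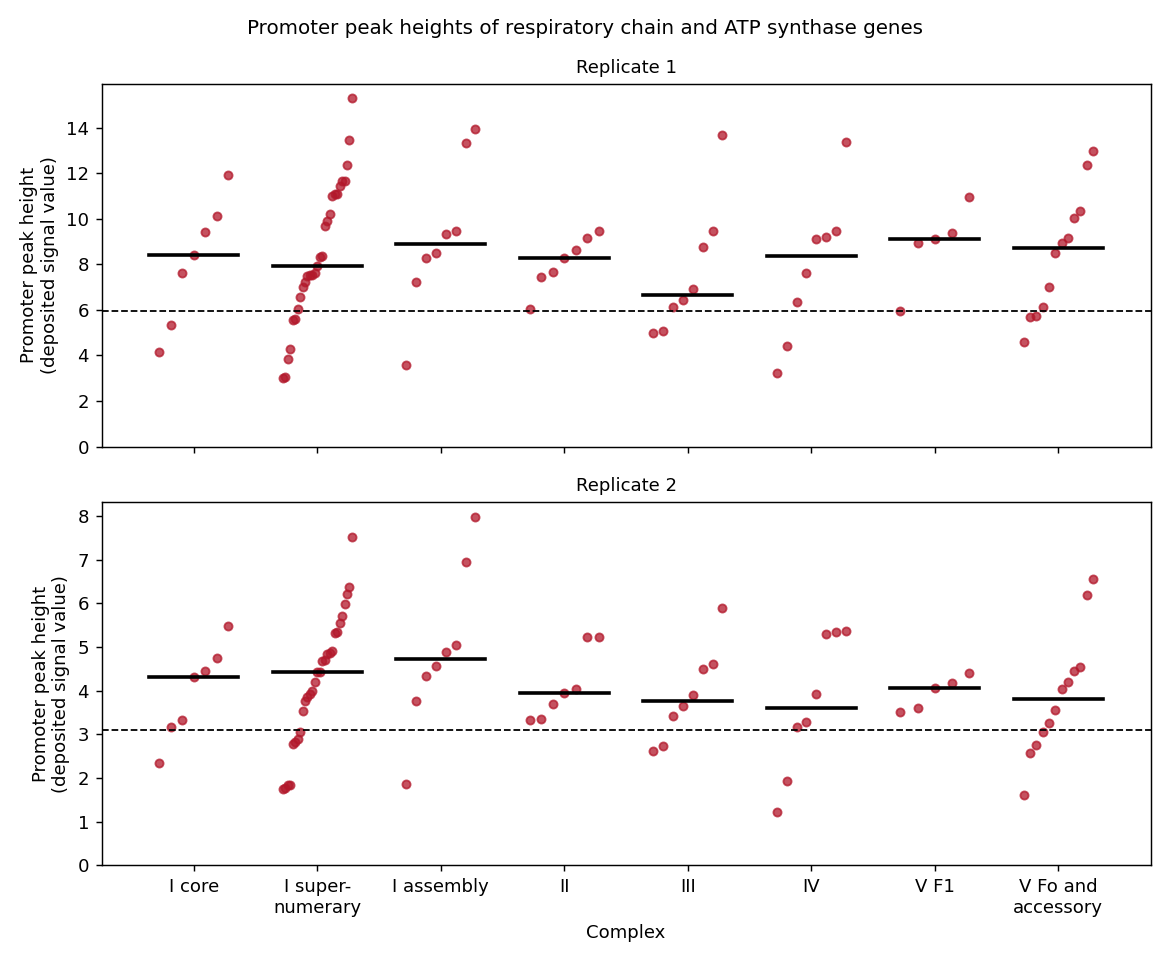
Promoter peak height (deposited signal value, 1 point per gene) of the 84 genes with a shared promoter peak, by complex, in replicate 1 (top) and replicate 2 (bottom). Black bars are the medians per complex and the dashed line is the median of all genes with a shared promoter peak (5.94 and 3.10). Every complex has its median above the dashed line in both replicates.

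All 7 core subunits of complex I, which carry the flavin, the iron-sulphur clusters and the quinone site, had a promoter peak, with median heights of 8.43 in replicate 1 and 4.31 in replicate 2. Ndufs1, the largest core subunit, stood at 9.44 in replicate 1 and 5.49 in replicate 2, from a peak that it shared with Eef1b2 on the opposite strand. Ndufs3, a core subunit of the module that reduces quinone, was the lowest at 4.16 in replicate 1 and 2.34 in replicate 2. Ndufs1 was thus more than 2-fold higher than Ndufs3 in each replicate.

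All 29 supernumerary subunits of complex I, which surround the core and have no redox centre, had a promoter peak. Their heights had a median of 7.92 in replicate 1 and 4.43 in replicate 2. Ndufa8 was the highest of all members in replicate 1, with 15.3, and stood at 7.52 in replicate 2. Ndufa13, known also as a cell-death regulator, was next by the mean of both replicates, with 13.5 in replicate 1 and 6.22 in replicate 2. That peak was centred at -713 bp from its start, and Tssk6 and Yjefn3 also start within 1 kb of it. The peak nearest the GENCODE start of Ndufa13 reached only 1.00 in replicate 1 and 1.04 in replicate 2, so the high value rests on the choice of the highest peak within 1 kb. The RefSeq start of Ndufa13 lies 538 bp from the GENCODE start. Within 1 kb of that RefSeq start, shared peaks reached 10.8 in replicate 1 and 5.11 in replicate 2. Ndufc2, a membrane-arm subunit, was the lowest by the mean of both replicates, at 3.02 in replicate 1 and 1.84 in replicate 2. The X-linked Ndufb11 (3.03 in replicate 1 and 1.85 in replicate 2) and Ndufa1 (4.30 in replicate 1 and 1.75 in replicate 2), both membrane-arm subunits, were also among the low members.

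All 8 complex I assembly factors had a promoter peak, with medians of 8.91 in replicate 1 and 4.72 in replicate 2, both above those of the core and supernumerary subunits. Ndufaf4 reached 13.3 in replicate 1 and 7.98 in replicate 2, the highest member value of replicate 2. Ndufaf8, which works with the arginine hydroxylase Ndufaf5, reached 13.9 in replicate 1 and 6.94 in replicate 2, from a promoter facing Tepsin. Ndufaf1, a factor for the membrane arm, was the lowest, with 3.58 in replicate 1 and 1.86 in replicate 2. Leaving Ndufaf1 aside, the other 7 stood at 7.25 or more in replicate 1 and 3.77 or more in replicate 2.

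In complex II, which oxidises succinate in the citric acid cycle, 7 of 8 genes had a promoter peak. Sdha, the flavoprotein, stood at 9.14 in replicate 1 and 5.24 in replicate 2, from a peak shared with Ccdc127. Sdhaf3, an assembly factor for the iron-sulphur subunit, had 9.45 in replicate 1 and 3.95 in replicate 2. Sdhaf2, which helps to attach flavin to Sdha, was the lowest with 6.02 in replicate 1 and 3.32 in replicate 2, over a wide site of 840 bp. The 7 heights lay within 6.02 to 9.45 in replicate 1 and 3.32 to 5.24 in replicate 2, a narrower span than in complexes I, III and IV. The structural subunits Sdhb, Sdhc and Sdhd lay inside that span, with 8.64, 8.26 and 7.67 in replicate 1 and 3.69, 4.05 and 3.34 in replicate 2.

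All 8 genes of complex III, which oxidises ubiquinol, had a promoter peak, with the lowest class median of replicate 1 (6.66) and a median of 3.77 in replicate 2. Uqcrfs1, the Rieske iron-sulphur protein, stood out at 13.7 in replicate 1 and 5.89 in replicate 2. Uqcrh, the hinge protein by cytochrome c1, followed by the mean of both replicates, at 9.47 in replicate 1 and 4.49 in replicate 2. That peak was centred at -390 bp and was shared with Lrrc41 on the opposite strand, and the peak at the Uqcrh start reached 4.37 in replicate 1 and 1.87 in replicate 2. Uqcrb, a small subunit at the quinone side, was the lowest with 4.97 in replicate 1 and 2.63 in replicate 2. The core proteins Uqcrc1 and Uqcrc2 stood at 6.11 and 5.08 in replicate 1 and at 3.65 and 2.74 in replicate 2.

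Complex IV, which reduces oxygen, was the class with the lowest share of genes with a promoter peak, 8 of 11 (72.7%), and the genes without one were all isoforms or paralogs of members that had one. Among the 8, the median was 8.38 in replicate 1 and 3.60 in replicate 2. By the mean of both replicates Cox6a1 was the highest, at 13.4 in replicate 1 and 5.31 in replicate 2, and Cox5a was next, at 9.47 in replicate 1 and 5.36 in replicate 2. Cox5b stood at 9.22 in replicate 1 and 3.29 in replicate 2, and Cox6c at 9.12 in replicate 1 and 5.36 in replicate 2, where Cox6a1, Cox5a and Cox6c were nearly level. Cox6b2, the testis isoform of subunit 6b, was the lowest, with 3.23 in replicate 1 and 1.21 in replicate 2.

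The isoform pairs of complex IV were split, except Cox6b1 and Cox6b2, which both had a shared promoter peak. Cox4i1, the isoform of subunit 4 in most tissues, had 7.64 in replicate 1 and 3.92 in replicate 2, whereas Cox4i2, the lung and low-oxygen isoform, had no shared promoter peak. In the longer list, replicate 2 alone had a peak of height 0.378 placed 265 bp from the Cox4i2 start. Cox6a1 had its high peak, whereas Cox6a2, the heart and skeletal muscle isoform, had none, and the nearest shared site lay 1894 bp from its start with 1.48 in replicate 1 and 0.800 in replicate 2. Cox6b1 had 4.41 in replicate 1 and 1.94 in replicate 2, above the 3.23 and 1.21 of its testis isoform Cox6b2. Ndufa4 had 6.36 in replicate 1 and 3.17 in replicate 2, whereas its low-oxygen paralog Ndufa4l2 had none. In the longer list, replicate 1 had a peak of 0.709 over the Ndufa4l2 start and replicate 2 had none there. The closest shared site of Ndufa4l2 was centred at -1946 bp, with 6.83 in replicate 1 and 3.90 in replicate 2.

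All 5 genes of the F1 head of ATP synthase had a promoter peak, with medians of 9.11 in replicate 1, the highest of the classes, and 4.05 in replicate 2. Atp5b had 10.96 in replicate 1 and 4.40 in replicate 2. Atp5c1, the gamma subunit of the central stalk, had 9.39 in replicate 1 and 4.18 in replicate 2. Atp5a1, the alpha subunit, was the lowest by the mean of both replicates, with 5.96 in replicate 1 and 3.60 in replicate 2. In replicate 2 the 5 genes lay within 3.50 to 4.40, although the head holds more copies of the alpha and beta subunits than of the stalk subunits.

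Of the 13 entries of the Fo part and accessory proteins, 12 had a promoter peak, with medians of 8.71 in replicate 1 and 3.81 in replicate 2. Atp5g1, Atp5g2 and Atp5g3 encode the same mature subunit c and differ in their import sequences. Atp5g2 had the highest peak of the class, 13.0 in replicate 1 and 6.56 in replicate 2. Atp5g1 had 8.94 in replicate 1 and 3.05 in replicate 2, and Atp5g3 had 8.48 in replicate 1 and 4.46 in replicate 2. Atp5g2 was thus the highest of the 3 in both replicates, while the order of Atp5g1 and Atp5g3 differed between replicates. Atp5mpl, a small membrane protein of the complex, had 12.4 in replicate 1 and 6.19 in replicate 2. Atp5l, subunit g at the membrane, was the lowest with 4.57 in replicate 1 and 1.61 in replicate 2.

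The 5 entries without a shared promoter peak were Cox4i2, Cox6a2, Ndufa4l2, Sdhaf1 and the second Atp5o identifier. All 5 were CpG-poor at their 5'-most GENCODE start. The second Atp5o identifier (ENSMUSG00000116933.1) has its only start 4539 bp from the nearest peak of replicate 1. That peak belongs to the promoter of the first Atp5o entry, the stalk subunit that joins F1 to Fo, with 5.70 in replicate 1 and 2.57 in replicate 2. Sdhaf1, an assembly factor for the iron-sulphur subunit of complex II, has 1 GENCODE start, and a peak of 8.59 in replicate 1 and 3.74 in replicate 2 (chr7:30322301-30322560) lay 1335 bp from it. The RefSeq start of Sdhaf1, base 30322375, falls inside that peak. RefSeq promoters were listed for 70 of the 88 symbols, and all 70, Sdhaf1 among them, had a shared peak within 1 kb of that start. Cox4i2, Cox6a2 and Ndufa4l2 were not among the 70, so this count could not show a missing peak at them. The same share over all genes was not computed.

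The member peaks sat close to the start. The peak centre lay within 100 bp of an annotated start in 72 of 84 members (85.7%), against 66.0% of all genes with a shared promoter peak. The median centre was at -13 bp, where negative positions are upstream of the start, and the median width of the site was 300 bp. For listed bases, the start is the annotated start nearest the peak centre, which is not always the 5'-most one. Every base from 120 bp upstream to 139 bp downstream of it was listed at an FDR under 0.05 in all 84 members in both replicates. The members and the all-gene set were both selected for a peak near a start, so much of this listing follows from the selection. Over all genes the listed share peaked at 95.3% in replicate 1 and 95.1% in replicate 2. Higher peaks tended to be narrower: Spearman's rho of height with width was -0.38 in replicate 1 and -0.49 in replicate 2 over the 84 members, against -0.06 and -0.09 over 13941 genes. Height and width of a site come from the same reads, and these are descriptions across genes.

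Footprints in both replicates were found in the promoter peaks of all 84 members, against 99.1% of all genes, so this did not set the members apart. Members had a median of 6 footprints in replicate 1 and 5 in replicate 2, against 5 in each over all genes. The peak of Atp5j, coupling factor 6 of the stalk, held the most, 22 in replicate 1 and 13 in replicate 2. It is also the widest, 1300 bp, and Atp5j shares it with Gabpa, the DNA-binding subunit of GABP. By position, footprints covered 42.7% of bases in replicate 1 and 36.8% in replicate 2 at 60 to 41 bp upstream of the members' starts, against 28.4% and 24.4% over all genes. A second rise followed at 40 to 59 bp downstream, 31.1% in replicate 1 and 22.4% in replicate 2 for members, where the all-gene values were 18.03% and 12.7%.

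**Figure D2:**
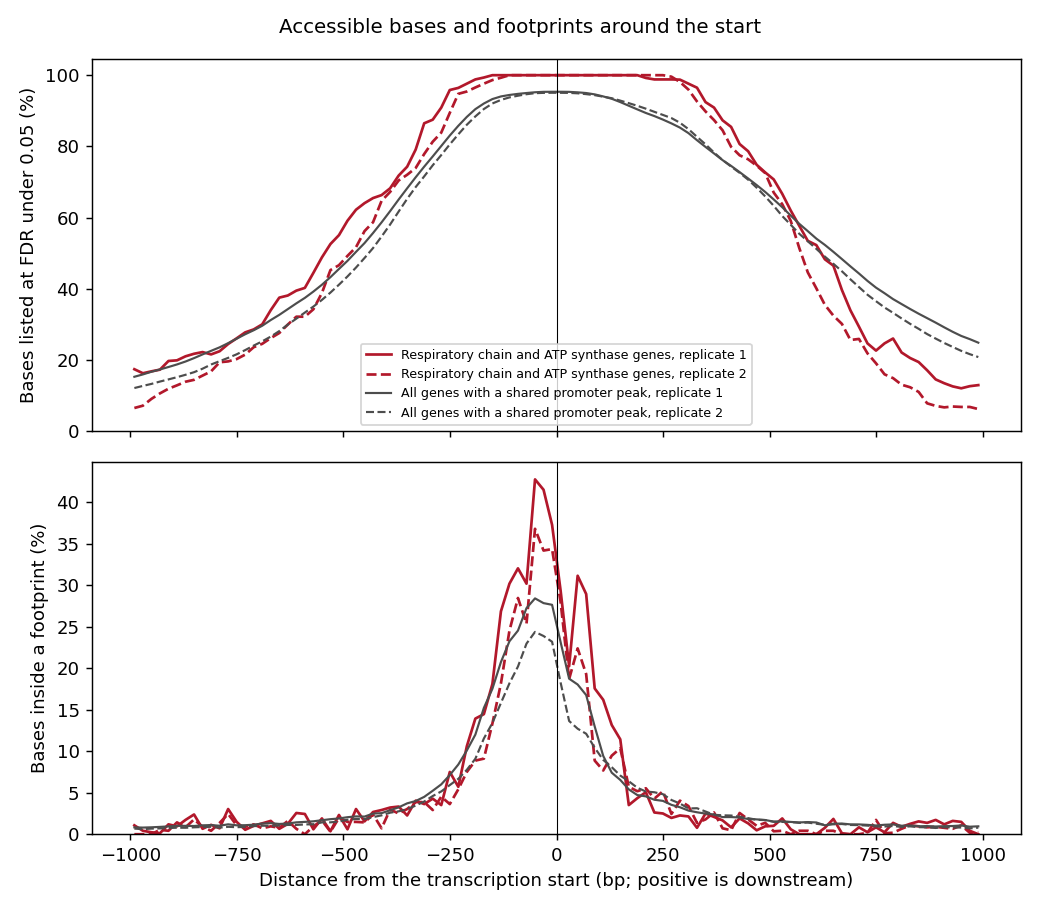
Share of bases listed at an FDR under 0.05 (top, %) and inside a footprint (bottom, %) in 20-bp bins of distance from the transcription start, for the respiratory chain and ATP synthase genes (red) and all genes with a shared promoter peak (grey), replicate 1 solid and replicate 2 dashed. The start of a gene is the annotated start nearest its promoter peak. The members' footprint curve is highest 60 to 41 bp upstream (42.7% and 36.8%) and rises again 40 to 59 bp downstream (31.1% and 22.4%).

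Many member promoters face another gene, which here means a nearby start on the opposite strand, whether or not the genes point apart. For 36 of 84 members (42.9%) a protein-coding gene on the opposite strand started within 1 kb of the same peak. The share was 17.4% of all genes and 20.8% of CpG-rich genes with a shared promoter peak. Several of the partners also act in mitochondria. Ndufs6, a zinc-binding subunit of complex I, faced Mrpl36 (7.02 in replicate 1 and 3.92 in replicate 2), and Ndufb5, a membrane-arm subunit, faced Mrpl47 (11.6 in replicate 1 and 4.43 in replicate 2), both of the mitochondrial ribosome. Sdhd faced Timm8b of the protein import machinery, and Atp5j faced Gabpa at 5.72 in replicate 1 and 2.76 in replicate 2. Others faced cytosolic translation genes, such as Ndufa7 with Rps28 (12.4 in replicate 1 and 5.32 in replicate 2). These partners are examples chosen after their identity was seen. A shared peak cannot be divided between its genes, and the heights with a partner (median 8.31 in replicate 1 and 3.95 in replicate 2) were close to those with none (8.46 in replicate 1 and 4.35 in replicate 2).

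Motif matches were counted within 150 bp of the centre of the promoter peak, overlapping matches of the same motif being counted as 1. An NRF1 match was present in 28 of 84 members (33.3%, exact 95% interval 23.4 to 44.5%), against 15.2% of all genes and 18.1% of CpG-rich genes with a shared promoter peak. A YY1 match was present in 24 members (28.6%, interval 19.2 to 39.5%), against 6.34% of all genes and 7.67% of CpG-rich genes. An ETS match was present in 23 members (27.4%, interval 18.2 to 38.2%), against 18.1% of all genes and 21.1% of CpG-rich genes. The YY1 share was the farthest from the all-gene share. The ETS interval nearly touched the all-gene share and included the share of CpG-rich genes. At least 1 of the 3 was present in 58 members (69.0%), against 34.2% of all genes, and at least 2 in 16 members (19.05%), against 5.27%. Within 75 bp of the centre, YY1 matches were found in 10 members (11.9%, against 3.34% of all genes) and ETS matches in 14 (16.7%, against 11.4%). From 250 bp before to 50 bp after the 5'-most start, YY1 was found in only 5 of all 89 members (5.62%), against 2.91% of 21938 genes.

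**Figure D3:**
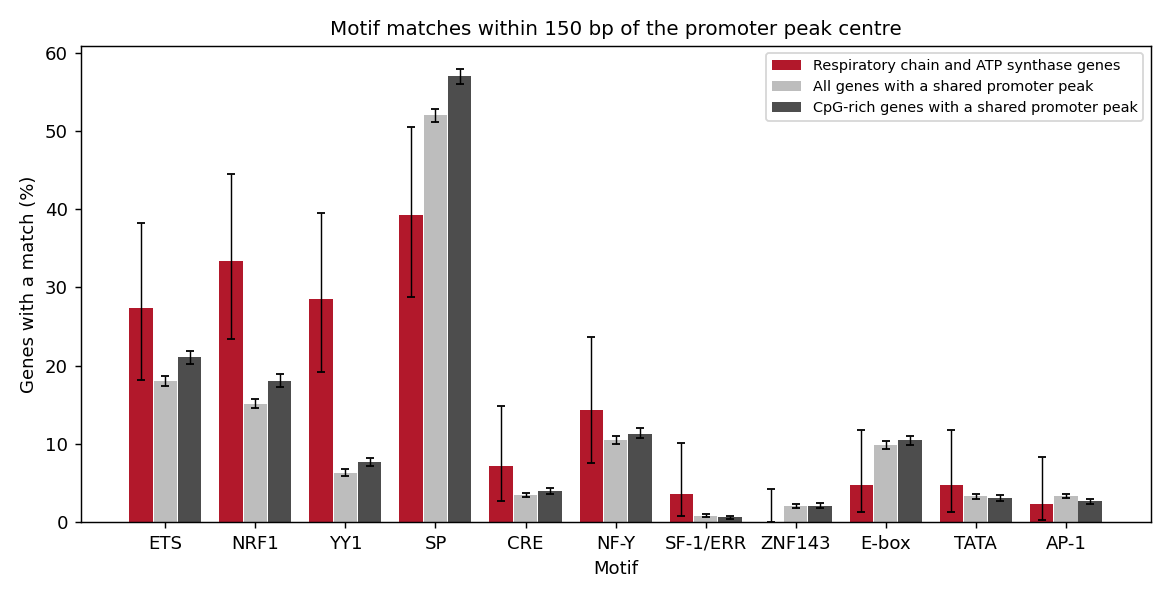
Share of genes (%) with a motif match within 150 bp of the promoter peak centre, for the 84 respiratory chain and ATP synthase genes, all 13941 genes and the CpG-rich genes with a shared promoter peak. Error bars are exact 95% binomial intervals and cover counting error over genes only. The members' shares are 33.3% for NRF1, 28.6% for YY1 and 27.4% for ETS.

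The GC-box of SP factors (GGGCGGG) matched in 33 members (39.3%, interval 28.8 to 50.5%), against 52.0% of all genes, and was the motif that fell short of the all-gene share by more than its interval. The E-box CACGTG, bound by USF and MYC factors, matched in 4 members, against 9.84% of all genes. The ZNF143 motif (ACTACAANT) matched in none of the 84, which allows up to 4.30% by the exact interval, against 2.05% of all genes. The cAMP response element (TGACGTCA) matched in 6 members, against 3.47%, the NF-Y box (AGCCAAT) in 12, against 10.5%, TATAAA in 4, against 3.31%, and the AP-1 site (TGANTCA) in 2, against 3.36%. The exact intervals of these 6 counts all include the all-gene share. The monomer site of SF-1 and the estrogen-related receptors matched in 3 members, Uqcr10, Atp5g3 and Sdhd (3.57%, interval 0.743 to 10.1%), against 0.825% of all genes, which the interval also includes. The share of CpG-rich genes, 0.624%, lay just below this interval, which rests on 3 members. Uqcr10 is a small subunit of complex III, and the centre of its match was inside a footprint of replicate 1 and not of replicate 2.

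The matches differed in position and in how often they were footprinted. YY1 matches had a median position 35 bp downstream of the nearest start, 18 of 25 (72.0%) lay downstream of it, and 16 of 25 read in the gene's direction. Over all genes the median was 15 bp downstream, 62.7% of 918 YY1 matches lay downstream, and 616 of 918 read in the gene's direction, so the direction was near the background. NRF1 matches had a median position of -31 bp, against -42 bp over all genes, and ETS matches of -19.5 bp, against -23 bp. The centre of 35 of 41 NRF1 matches (85.4%, interval 70.8 to 94.4%) lay inside a footprint of both replicates, against 77.0% of NRF1 matches over all genes. The same was so for 11 of 25 YY1 matches (44.0%, interval 24.4 to 65.1%), against 32.5%, and for 10 of 28 ETS matches (35.7%, interval 18.6 to 55.9%), against 26.1%. By replicate 1 alone, 60.7% of the members' ETS matches were footprinted, against 44.3% over all genes, so that share rests on which replicates are required. NRF1 matches were thus the most often footprinted of the 3 in members as in all genes, and each of the 3 intervals includes the all-gene share. A footprint over a match is not an assay of which protein is bound.

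The motif counts differed between the complexes, but they are too small to test, and only some classes are given here. Over all 84 members the shares were 33.3% for NRF1, 28.6% for YY1 and 27.4% for ETS. YY1 matches were present in 4 of 7 complex I core genes (Ndufs1 and Ndufv2 among them), 8 of 29 supernumerary genes and 4 of 8 complex III genes, and in 0 of 8 complex IV genes and 0 of 8 complex I assembly genes, the match at the edge of the Ndufaf8 window not being counted. NRF1 matches were present in 0 of 7 complex I core genes, 9 of 29 supernumerary genes, 4 of 7 complex II genes and 7 of 12 Fo and accessory genes. ETS matches were present in 4 of 7 complex II genes and 4 of 8 complex IV genes (Cox4i1, Cox5b, Cox6a1 and Cox6b1). They were present in 3 of 7 complex I core genes and 3 of 29 supernumerary genes. Ndufb4, a membrane-arm subunit, and Sdha each carried 3 NRF1 matches. Ndufa13 carried 4, centred from -848 to -625 bp from its start, under the peak that it shares with Tssk6.

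Distal peaks were shared peaks more than 1 kb from every annotated start and within 50 kb of the 5'-most start of a gene. At least 1 was found for 69 of 89 members (77.5%), against 65.0% of all genes and 74.6% of CpG-rich genes. Members had a mean of 2.17 and a median of 2 distal peaks, against a mean of 1.61 and a median of 1 over all genes and a mean of 1.87 over CpG-rich genes. The 193 pairs of a member and a distal peak held 191 distinct peaks, with median heights of 2.05 in replicate 1 and 1.26 in replicate 2. Over all 26623 shared peaks more than 1 kb from every start, the medians were 1.497 in replicate 1 and 0.874 in replicate 2. That larger set has no limit of 50 kb, so the 2 sets are not alike and the difference is not a trait of these genes alone. The mean number was 1.10 within 25 kb and 4.11 within 100 kb, and 4.62 in replicate 1 alone against 2.34 in replicate 2 alone. Nearness does not assign a peak to a gene.

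Cox4i2, which had no promoter peak, had the most distal peaks, 11. The highest of them in replicate 1 was centred at -46382 bp, with 7.41 in replicate 1 and 3.58 in replicate 2, and the highest in replicate 2 at 12498 bp downstream, with 5.34 in replicate 1 and 3.61 in replicate 2. Atp5d, the delta subunit of the F1 stalk, had 10, the highest centred 21369 bp downstream with 12.5 in replicate 1 and 4.38 in replicate 2, above its promoter peak of 9.11 in replicate 1 and 3.50 in replicate 2. Atp5h, subunit d of the outer stalk, had 8, of which 3 stood together about 6 to 7 kb downstream, the highest with 7.68 in replicate 1 and 3.79 in replicate 2. Sdhc, a membrane anchor of complex II, had 8, all downstream of its start and at least 32162 bp away, with at most 5.51 in replicate 1 and 3.74 in replicate 2. Ndufa8 and Sdhaf1 had 7 each, and the Ndufa8 peaks reached at most 2.47 in replicate 1 and 1.56 in replicate 2.

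**Figure D4:**
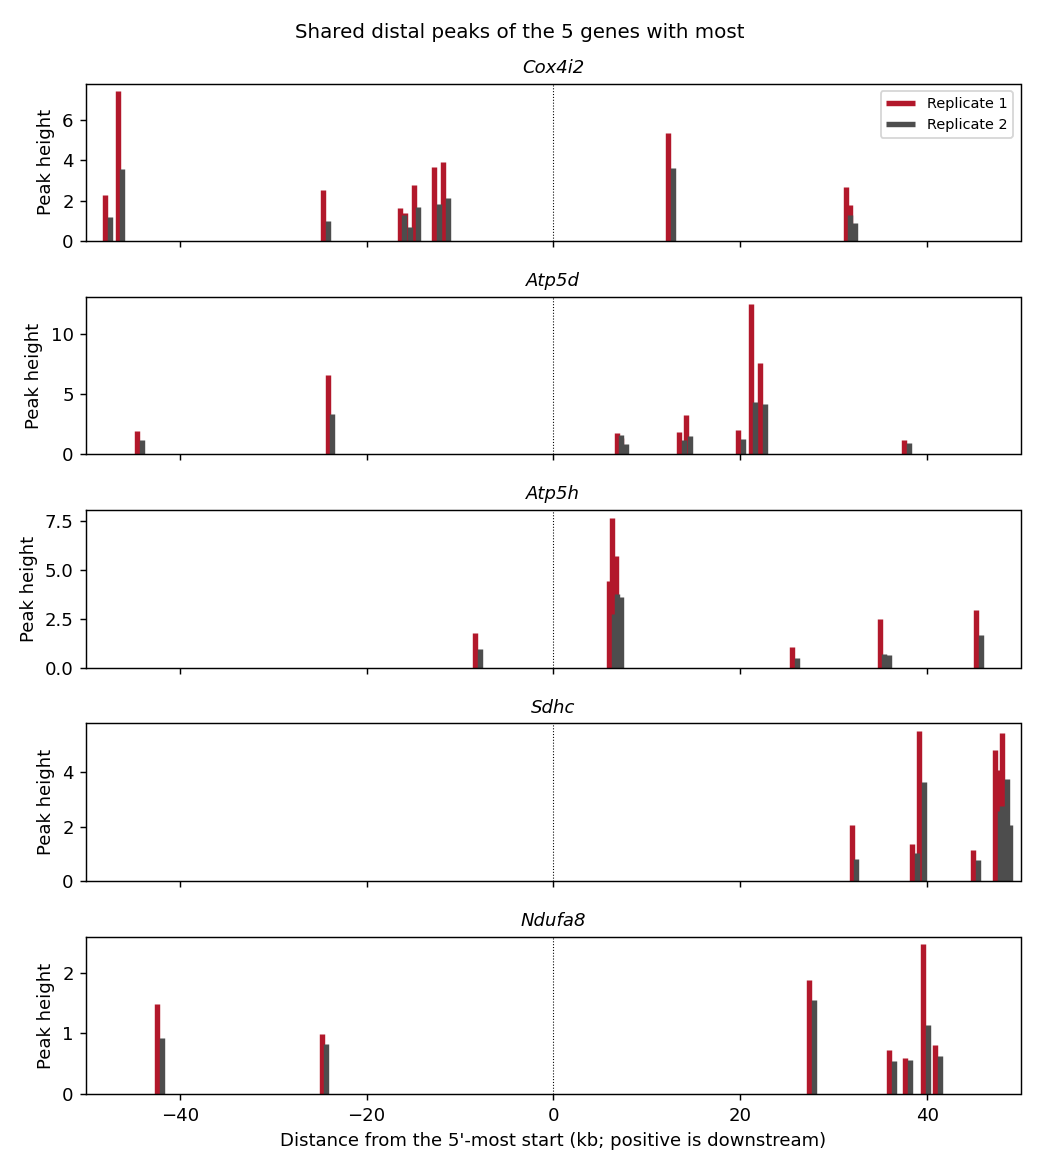
Heights of shared distal peaks (deposited signal value; replicate 1 red, replicate 2 grey) by distance from the 5'-most start in kb, for Cox4i2, Atp5d, Atp5h, Sdhc and Ndufa8. Bars are shifted sideways to keep the replicates apart, and the dotted line is the start. The highest bar is the Atp5d peak 21369 bp downstream (12.5 in replicate 1 and 4.38 in replicate 2).

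The replicates ordered the members similarly but on different scales. All 84 promoter peaks were higher in replicate 1 than in replicate 2, against 96.7% of all genes, and the log2 ratio of the heights (replicate 1 over 2) had a median of 1.00, against 0.92 over all genes and 0.97 over CpG-rich genes. Spearman's rho between the replicates was 0.84 over the 84 members, against 0.94 over 13941 genes, whose heights span a wider range. The ratio was lowest for Sdhaf4, an assembly factor of complex II, at 0.51, with 7.43 in replicate 1 and 5.23 in replicate 2. Ndufb7 and Ndufb9, membrane-arm subunits, followed at 0.64 (7.53 in replicate 1 and 4.83 in replicate 2) and 0.65 (6.06 in replicate 1 and 3.86 in replicate 2). It was highest for Atp5g1 at 1.55, then Atp5l at 1.51 and Ndufb4 at 1.49 (9.92 in replicate 1 and 3.53 in replicate 2). The Atp5l value rests on a peak centred at -359 bp, and the peak nearest its start had 3.10 in replicate 1 and 2.28 in replicate 2. By class the median ratio ran from 0.83 for the complex I core to 1.17 for F1. With 1 sample on each side there is no test of a ratio, and replicate 1 also had more peaks and footprints at large.

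**Figure D5:**
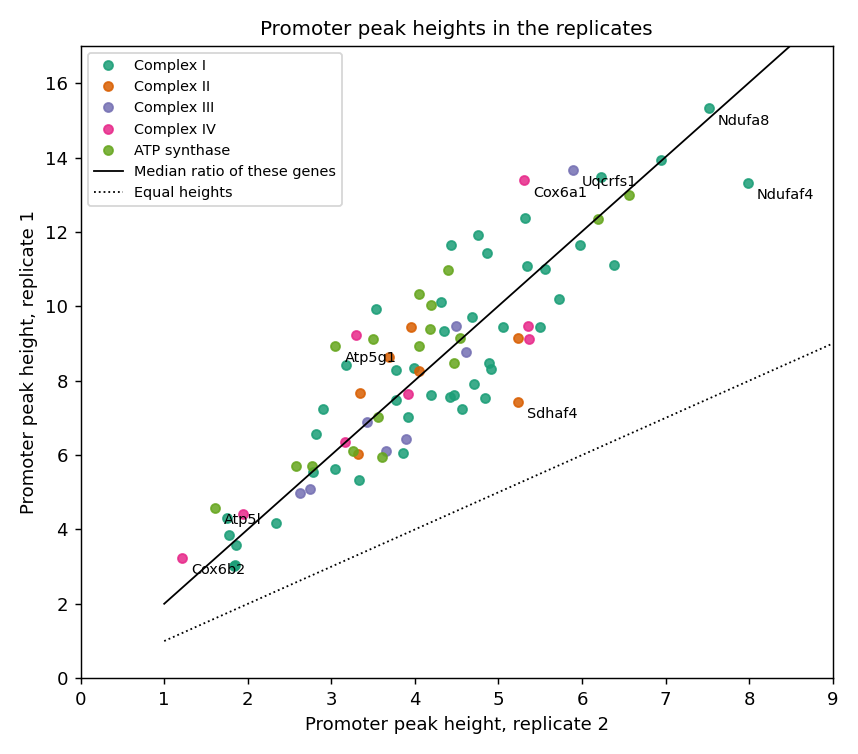
Promoter peak height in replicate 1 (vertical axis) against replicate 2 (horizontal axis) for the 84 genes, coloured by complex. The solid line is the median ratio (log2 ratio 1.00) and the dotted line marks equal heights, and all 84 points lie above the dotted line.

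The other genes of the pathway were counted from 3 lists drawn up by role. Of 12 further genes for complex III and IV subunits and cytochrome c, 9 had a shared promoter peak. Cycs, the somatic cytochrome c, had 14.5 in replicate 1 and 6.54 in replicate 2, whereas Cyct, its testis counterpart, had none. Cox8c and Cox7b2 also had none, and Cox8b, a heart and muscle isoform, had 1.18 in replicate 1 and 1.25 in replicate 2. All 28 assembly factors had a promoter peak, with medians of 8.38 in replicate 1 and 4.12 in replicate 2. All 16 regulators had one too, among them Esrra (an estrogen-related receptor) at 17.2 in replicate 1 and 5.97 in replicate 2, Yy1 at 14.0 in replicate 1 and 5.44 in replicate 2, and Nrf1 at 9.06 in replicate 1 and 5.10 in replicate 2. Ppargc1a, the coactivator PGC-1 alpha, stood low at 2.32 in replicate 1 and 1.56 in replicate 2, and Nr5a1 at 3.24 in replicate 1 and 2.09 in replicate 2.

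The shorter lists held 98813 peaks in replicate 1 and 55135 in replicate 2, with 48289 shared, and the footprint lists 339116 in replicate 1 and 241536 in replicate 2. The heights were whole multiples of a step of 0.00668 in replicate 1 and 0.00620 in replicate 2, and if a step is 1 tag, which no source states, the median member peak has a counting error of 2.82% in replicate 1 and 3.91% in replicate 2. Of the cortex markers 6 of 8 had a shared promoter peak, with none at Cyp21a1 and Mc2r, and of the medulla markers 4 of 8, with none at Th and Pnmt, among others. The median height was 3.66 in replicate 1 and 1.98 in replicate 2 for the cortex markers. For the medulla markers it was 5.25 in replicate 1 and 3.00 in replicate 2. The share with such a peak over the 21938 genes was 63.5%, and these short lists were not tested against it. Fat markers had one at 5 of 6 genes (none at Adipoq), including the brown fat gene Ucp1 at 2.58 in replicate 1 and 2.01 in replicate 2, and their median was 2.58 in replicate 1 and 1.87 in replicate 2. Muscle and heart markers had one at 1 of 6 (Ckm), kidney at 1 of 4 (Lrp2) and blood at 0 of 4. Brown fat is rich in respiratory chain proteins, and its part in the member peaks was not tested.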

How the data were processed

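Per the labels and the deposited file listing, DNase-seq reads of each sample were aligned to mm10 by the authors, and each file was made from 1 sample without pooling. The names of the aligner and callers were not given in the sources used here. Peak height is the signal value per peak in the deposited lists, and the way the authors scaled it was not stated. The highest p-value among the deposited footprints was 0.01 in each replicate, read as the threshold of the call. The deposited FDR values are adjusted p-values listed under 0.05 per stretch of bases. Since mm10 is the C57BL/6J sequence, reads of CAST/EiJ alleles may align less often at variant sites.

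Shared peaks were merged regions of peaks overlapping by at least 1 bp in both replicates, taken from the shorter list of each sample, with the highest height per replicate. The highest shared peak within 1 kb of any GENCODE M21 start was the promoter peak, and distal peaks lay over 1 kb from every start. CpG ratios, motif matches and footprint overlaps were computed from the mm10 reference with pysam 0.24.0, numpy 2.4.6 and pandas 2.3.3, and exact Clopper-Pearson intervals with scipy 1.17.1. The merging of peaks, their assignment as promoter or distal peaks and the motif search were tested on simulated data with planted peaks and motifs. The CpG ratios, footprint overlaps and search for opposite-strand genes were not tested in this way. With 1 group of 2 replicates no test between conditions was made.

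Genes were named by rule: members without a promoter peak, the 2 highest and the lowest per class by mean height, the isoform pairs, the 5 with most distal peaks, and the 3 highest and 3 lowest replicate ratios. Others were named after their values were seen, and 1 member and 1 marker gene are not reported here by name. The members, lists and motifs were chosen with earlier results of these data known. Alternatives were the longer list, height and overlap limits, other windows, RefSeq starts, the nearest peak and each replicate alone.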

Additional observations from a re-analysis of the deposited data

How the results depend on the processing

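Of 50 values recomputed under other settings, 43 stayed within the limit set for them (1.5 times for a count, 0.1 for the log2 ratio, the SD between replicates for heights and distal peaks, the interval for the ETS share), and 7 moved. The limit for heights was the SD of the 2 replicate medians (8.39 and 4.05). It is wide because the replicates differ in scale, so it could hardly flag a height. The recomputed medians themselves lay within 8.29 to 8.39 in replicate 1 and 4.02 to 4.05 in replicate 2. Within 75 bp of the peak centre the ETS count was 14 and the YY1 count 10, and in the window at the 5'-most start the YY1 count was 5. The mean number of distal peaks within 100 kb was 4.11. It was 1.10 within 25 kb, 1.28 with the upper 50% of heights and 3.56 with the longer list, which differ from 2.17 by over 1.5 times though by less than the wide SD between replicates. Over each replicate left out in turn, that mean within 50 kb ran from 2.34 to 4.62, and the share of ETS centres in a footprint from 42.9 to 60.7%. Leaving out members that share a promoter peak left 48 members with one, of 53, a drop that follows from its construction, since only members with a peak can be left out. The causes of the other moves were not tested. The count of members with a promoter peak was 84 with the longer list, the upper 50% of heights, 500 bp and each replicate alone, and in each case they were the same 84. It was 87 within 2 kb, which added Cox6a2, Ndufa4l2 and Sdhaf1. It was 82 with the 5'-most start alone and 76 with a 50% reciprocal overlap, which lost Atp5a1, Ndufa3, Ndufc2, Ndufs7, Ndufs8, Uqcr10, Uqcrb and Uqcrc2. RefSeq starts, counting each symbol once and the nearest peak were added after seeing the data. No paired analysis was possible because there was 1 group.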

Other observations

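Some member genes lay near each other on a chromosome. Atp5d and Ndufs7 started 110 kb apart, Ndufs7 and Uqcr11 158 kb, Ndufs8 and Ndufv1 100 kb, Sdhaf1 and Cox6b1 302 kb, and Ndufaf3 and Uqcrc1 369 kb. Of the neighbours, Ndufs7, the core subunit that carries the last iron-sulphur cluster of complex I, had 10.1 in replicate 1 and 4.31 in replicate 2, and Uqcr11, a small subunit of complex III, had 6.90 in replicate 1 and 3.42 in replicate 2.

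Motif matches were also counted at the members' distal peaks. The SF-1 and estrogen-related receptor site matched in 12 of 191 distal peaks (6.28%, exact 95% interval 3.29 to 10.7%). The share was 3.76% of all 26623 distal peaks, which were taken at any distance from a gene, and the interval includes it. The AP-1 site matched in 16 (8.38%, interval 4.86 to 13.2%), just under the 13.3% of all distal peaks. ETS matched in 8 (4.19%, interval 1.83 to 8.09%), against 2.69%. YY1 matched in 1 of the 191 and NRF1 in 3, against 0.650% and 0.965% of all distal peaks. The intervals for ETS, YY1 and NRF1 include the shares of all distal peaks.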
